A study of Mus musculus with 18 samples.

Results

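The RNA levels of 35 macrophage and monocyte genes were followed across 18 subcutaneous tumors of K7M2, a mouse osteosarcoma cell line that comes from a Balb/c mouse. The genes were listed by name, and all 35 of them were found among the 20878 mouse genes that were quantified in each tumor. The grafted cells had been transduced with a lentivirus that carries either a control shRNA (ATRXCT) or an shRNA against ATRX (ATRXKD), a chromatin remodeler, and 500000 cells were injected per mouse. The hosts were Balb/c mice (Balb/cJ), which have a complete immune system and share their strain with the cell line, or NSG mice (NOD.Cg-Prkdc scid Il2rg tm1Wjl/SzJ), which lack T, B and NK cells and keep myeloid cells. Tumors of 4 Balb/c mice with ATRXCT cells (mice 41, 43, 44 and 45), 4 Balb/c mice with ATRXKD cells (56, 58, 59 and 60), 5 NSG mice with ATRXCT cells (1 to 5) and 5 NSG mice with ATRXKD cells (26 to 30) were sequenced. All mice were 6 to 8 weeks old at the start. The model has limits that bear on these genes. All tumors come from 1 cell line, the shRNA acts in the grafted cells and not in the host's macrophages, whole cages were given to 1 kind of cells, so that cage and cell group cannot be told apart, and NSG mice differ from Balb/c mice in strain as well as in their lymphocytes.

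Macrophages take up and digest dead cells, microbes and debris, and in solid tumors they are often the most abundant immune cells. They arise from blood monocytes, which enter tissue through the chemokine receptor CCR2, or from cells seeded before birth, and most of them depend on the growth factor receptor CSF1R. Tissue macrophages make C1q, the part of the complement system that binds immune complexes and dying cells. The lipid receptor TREM2 signals through its adaptor TYROBP and accompanies a program of lysosomal and lipid-handling genes, which includes the glycoprotein GPNMB and the cathepsins.

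Promoter sequences are shown here for the members with the clearest differences between hosts (Marco, Gpnmb, Timd4), for Trem2, and for a pair of C1q chains that neighbour each other on chromosome 4. Each is the 250 bases before the start of the gene in RefSeq on build GRCm38.p6, written 5′ to 3′ on the gene's own strand, and capitals mark GAGGAA, the core of the motif of PU.1, the main transcription factor of the macrophage lineage, or its reverse complement TTCCTC.
C1qb, chr4:136886201-136886450, minus strand: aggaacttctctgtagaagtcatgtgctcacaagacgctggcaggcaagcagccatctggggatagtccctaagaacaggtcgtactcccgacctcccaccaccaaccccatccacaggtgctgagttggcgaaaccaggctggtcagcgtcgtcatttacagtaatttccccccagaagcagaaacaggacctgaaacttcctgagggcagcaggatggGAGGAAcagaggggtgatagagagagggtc
C1qc, chr4:136892915-136893164, minus strand: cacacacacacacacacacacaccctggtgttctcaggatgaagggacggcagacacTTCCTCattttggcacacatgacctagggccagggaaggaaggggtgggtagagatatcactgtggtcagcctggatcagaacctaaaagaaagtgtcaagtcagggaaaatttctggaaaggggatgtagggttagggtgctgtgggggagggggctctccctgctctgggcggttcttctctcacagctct
Trem2, chr17:48346151-48346400, plus strand: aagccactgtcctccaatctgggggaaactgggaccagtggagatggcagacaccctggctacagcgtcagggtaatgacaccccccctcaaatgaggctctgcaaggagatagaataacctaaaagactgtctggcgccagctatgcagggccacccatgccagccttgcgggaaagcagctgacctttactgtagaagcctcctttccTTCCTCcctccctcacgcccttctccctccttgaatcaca
Marco, chr1:120505025-120505274, minus strand: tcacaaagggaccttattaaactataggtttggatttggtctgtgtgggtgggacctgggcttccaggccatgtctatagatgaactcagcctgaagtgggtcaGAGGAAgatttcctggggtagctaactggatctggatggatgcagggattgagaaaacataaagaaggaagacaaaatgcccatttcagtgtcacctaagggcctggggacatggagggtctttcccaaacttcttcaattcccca
Gpnmb, chr6:49036268-49036517, plus strand: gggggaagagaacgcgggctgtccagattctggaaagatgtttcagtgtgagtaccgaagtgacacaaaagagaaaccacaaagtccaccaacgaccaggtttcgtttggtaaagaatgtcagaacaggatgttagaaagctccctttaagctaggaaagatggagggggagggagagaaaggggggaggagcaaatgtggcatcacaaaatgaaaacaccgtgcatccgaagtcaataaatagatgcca
Timd4, chr11:46810549-46810798, plus strand: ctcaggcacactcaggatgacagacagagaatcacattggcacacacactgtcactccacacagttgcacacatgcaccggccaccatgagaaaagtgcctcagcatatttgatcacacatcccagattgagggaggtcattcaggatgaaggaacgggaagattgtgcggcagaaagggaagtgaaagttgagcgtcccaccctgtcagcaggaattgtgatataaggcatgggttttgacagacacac
Of the 35 members, 24 had an entry in the promoter table. In the window from 250 bases before to 50 bases after the start, taken from the first promoter listed for each gene, GAGGAA was present on either strand in 14 of the 24 (58.3%) and in 28.3% of the windows of 27025 genes. The E-box CACGTG was found in 1 of the 24 (4.17%) and in 7.24% of all genes, and the AP-1 site TGACTCA in 2 of the 24 (8.33%) and in 5.17% of all genes. With all listed promoters of a gene counted, the AP-1 site was in 3 of the 24 and in 5.95% of all genes, the third member being Folr2, and the PU.1 core was in 14 of the 24 and in 31.3%. C1qb, C1qc, Trem2 and Marco each held 1 match to the PU.1 core, Gpnmb and Timd4 held none, and Gpnmb held 1 match to the AP-1 site. That AP-1 match does not lie wholly within the 250 bases printed above. A match describes these letters and does not show that a factor binds there. Genes without an entry were Arg1, C1qa, Adgre1, Msr1, Maf, Lyve1, Tyrobp, Ctsb, Nos2, Csf1r and Cd14.

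Levels are given in FPKM, fragments scaled by transcript length and by library size, and tests were run on log2(FPKM + 1). The libraries held an estimated 14950000 to 25450000 fragments each. They differed in how the level of a gene depended on its length. The slope, which is the change in log2(FPKM + 1) relative to the gene's mean for each doubling of transcript length, ran from -0.15 to 0.21 and was above 0 in tumors 43, 45, 56 and 60 of Balb/c mice and 3 and 27 of NSG mice. Atrx itself was at 17.6 ± 7.12 FPKM in the Balb/c ATRXCT tumors (SD, n = 4) and 13.95 ± 6.54 FPKM in the Balb/c ATRXKD tumors (n = 4), a log2 difference of -0.34 with an adjusted p of 0.999 in limma. In NSG mice it was at 17.6 ± 4.99 FPKM in ATRXCT and 10.2 ± 3.47 FPKM in ATRXKD tumors (SD, n = 5 each), with a log2 difference of -0.74 and an adjusted p of 0.061. The Y-linked gene Eif2s3y was at 0 in all 8 Balb/c tumors and between 5.64 and 14.4 FPKM in the 10 NSG tumors, whereas the methods describe female mice of both strains, so host sex also cannot be told apart from host strain here. Within NSG mice Eif2s3y was lower in ATRXKD than in ATRXCT tumors, with a log2 difference of -0.70 (adjusted p = 0.0306 in limma). The Y-linked genes Uty (-0.88, adjusted p = 0.00968) and Kdm5d (-0.49, adjusted p = 0.0392) were lower too, and Ddx3y (-0.50, adjusted p = 0.0571) did not pass. The part of this difference in the levels of the macrophage genes was not tested.

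The macrophage genes were among the abundant transcripts of these tumors. Lyz2, which encodes the lysozyme of macrophages, had the highest mean of the 35 at 1276 FPKM over the 18 tumors, which was rank 36 of all genes. In all, 18 members had a mean above 100 FPKM, a level that 944 of the 20878 genes reached, and 13 more lay between 10 and 100 FPKM. The remaining 4 were Ly6c2 at 8.14 FPKM, Marco at 3.26, Timd4 at 2.57 and Nos2 at 2.16 FPKM. Only Marco was listed at 0 in any tumor, and it was in 3 of them. The lineage genes that define macrophages (Csf1r, Adgre1, Cd68, Mpeg1, Aif1 and the C1q chains) were all detected in each tumor, so the tumors of both hosts held RNA of this lineage. The sum of the 35 genes was 7185 ± 1907 FPKM in Balb/c ATRXCT tumors (SD, n = 4), 6828 ± 1627 FPKM in Balb/c ATRXKD tumors (n = 4), 8642 ± 936 FPKM in NSG ATRXCT tumors (n = 5) and 5740 ± 1163 FPKM in NSG ATRXKD tumors (n = 5). In tumors analysed in bulk, fewer macrophages and less of a transcript in each macrophage cannot be told apart.

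**Figure D1:**
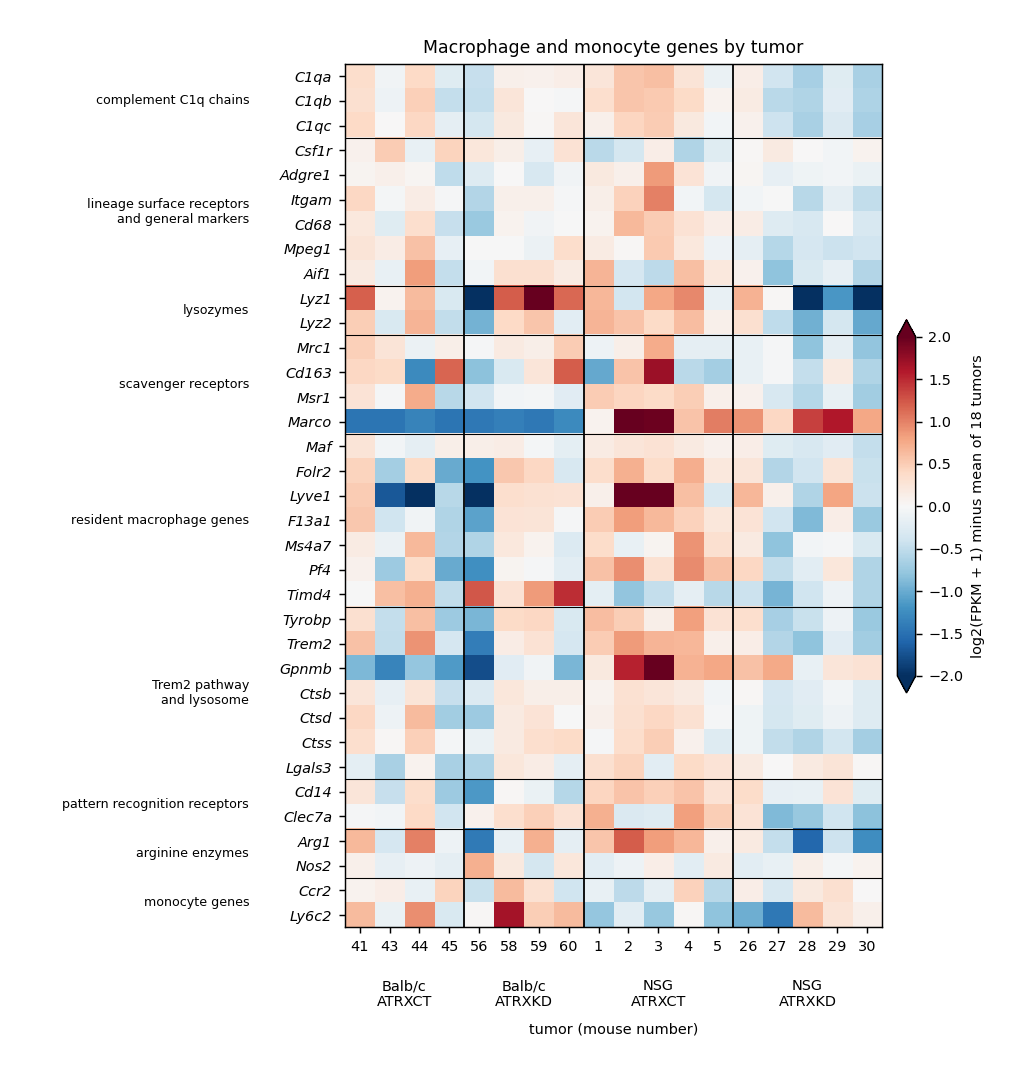
Heatmap of the 35 genes (rows, grouped by role) in the 18 tumors (columns, by group and mouse number), showing log2(FPKM + 1) minus the gene's mean over the 18 tumors. Most rows are paler or bluer in NSG ATRXKD than in NSG ATRXCT tumors, Marco is blue in all 8 Balb/c tumors, and Balb/c ATRXKD tumor 56 is low for many genes.

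In immunocompetent Balb/c mice no macrophage or monocyte gene passed the test between ATRXKD and ATRXCT tumors. Of the 34 members tested (Marco was below the filter of a mean of 0.1 FPKM), 22 had a difference below 0 and 12 above 0, from -0.57 to 0.76 on the log2 scale. Their median difference was -0.06, beside -0.0032 over all genes tested. This balance rested on single tumors, since the median was 0.09 with 12 members below 0 without ATRXKD tumor 56, 0.03 with 15 below 0 without ATRXCT tumor 44, 0.01 with 17 below 0 without ATRXCT tumor 41 and -0.18 with 25 below 0 without ATRXCT tumor 45. At an adjusted p under 0.05 and a fold of at least 2, limma called 0 members, beside 0.0068% of all 14701 genes, and at an unadjusted p under 0.05 it gave 1 member, Timd4, above 0. At that unadjusted p 356 of all genes lay below 0 and 253 above 0. Balb/c groups did not overlap for 0 members, beside 3.18% of all genes. C1qa, for example, was at 621, 463, 641 and 411 FPKM in ATRXCT tumors and at 352, 522, 512 and 529.7 FPKM in ATRXKD tumors. The 2 ranges lay over each other, and the log2 difference was -0.15 (SE 0.23, 95% interval -0.66 to 0.36, adjusted p = 0.999), an interval that leaves room for changes in either direction.

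In NSG mice, which lack lymphocytes, 12 macrophage genes were lower in ATRXKD than in ATRXCT tumors. These were the C1q chains C1qb and C1qc, Mpeg1, Lyz2, Msr1, Maf, F13a1, Pf4, Tyrobp, Trem2, Ctsd and Arg1, each at an adjusted p under 0.05 in limma, and 0 members were higher at that threshold. The share was 12 of 35, and 3.05% of all 14654 genes were lower by the same rule, while 547 genes were higher. With a fold of at least 2 required as well, 1 member remained, Arg1, beside 0.293% of all genes. Differences were below 0 for 31 of the 35, with a median of -0.50, while the median of all genes was -0.0014. Unadjusted, 25 members were lower and 1, Csf1r, was higher at p under 0.05 in limma, beside 1835 lower and 2018 higher of all 14654 genes. Complete separation of the groups was seen for 3 members, Mpeg1, Msr1 and Ctsd, and for 3.14% of all genes in that direction. How many members passed depended on single tumors. It was 0 without ATRXKD tumor 30, 1 without ATRXCT tumor 1, ATRXCT tumor 4 or ATRXKD tumor 28, 2 without ATRXKD tumor 29, 5 without ATRXCT tumor 2 or ATRXKD tumor 27, 7 without ATRXCT tumor 5, 14 without ATRXCT tumor 3 and 19 without ATRXKD tumor 26. The share of all genes lower by the same rule moved too, but not always with the members. It was 0.369% without ATRXKD tumor 30, 0.668% without ATRXKD tumor 28, 0.773% without ATRXCT tumor 4 and 0.976% without ATRXCT tumor 1. It was 1.02% without ATRXKD tumor 29 and 1.76% without ATRXCT tumor 5. Without ATRXKD tumor 27 it was 2.66% and without ATRXCT tumor 2 it was 3.03%, near the 3.05% of the main fit. It was 4.96% without ATRXKD tumor 26 and 5.48% without ATRXCT tumor 3. The median difference of the members stayed between -0.61 and -0.46 in these 10 fits.

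**Figure D2:**
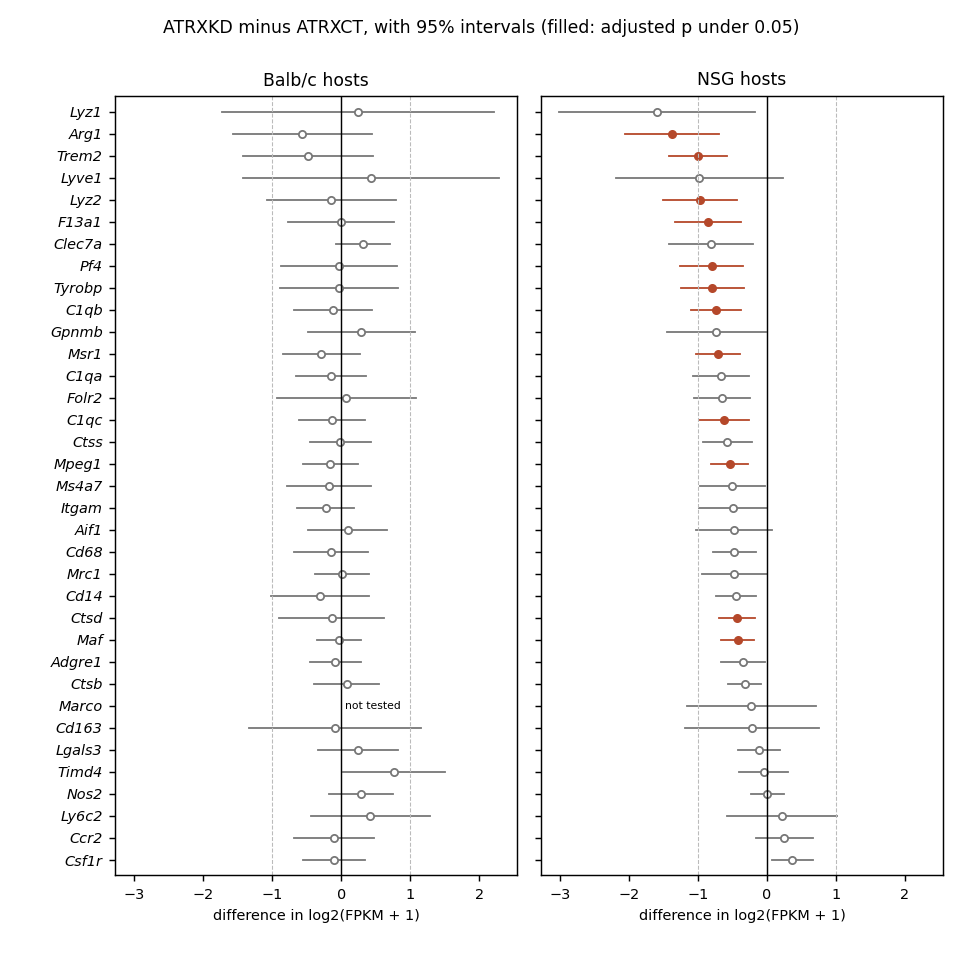
Log2 difference (ATRXKD minus ATRXCT, in log2(FPKM + 1)) of each member with its 95% interval, for Balb/c and for NSG mice, with red filled points for an adjusted p under 0.05 and dashed lines at a fold of 2. In NSG mice 31 of 35 points lie below 0 and 12 are filled, and in Balb/c mice none of the 34 is filled.

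The difference between the hosts in the knock-down effect was tested as an interaction over all 18 tumors. It called 0 members, and 0% of all 14803 genes. Unadjusted, 5 members (C1qb, Maf, Timd4, Ctss and Clec7a) had a p under 0.05, all with a less negative or more positive knock-down effect in Balb/c mice, while 868 and 659 of all genes had such a p in the lower and higher direction. The interaction of Clec7a was 1.13 (SE 0.37), with an adjusted p of 0.327 in limma, the smallest among the members. Of the 35 interaction values 33 were above 0, with a median of 0.48. Over all 14803 genes 7487 were above 0, with a median of 0.0038. Marco, one of the 33, was near 0 FPKM in Balb/c tumors, so its value rests on the NSG tumors. The data therefore do not show that the knock-down effect on any named gene differed between hosts at the adjusted threshold, although 12 genes passed in NSG mice and 0 in Balb/c mice.

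Between the hosts, few members differed. In ATRXCT tumors 2 members, Marco and Gpnmb, were higher in NSG than in Balb/c mice at an adjusted p under 0.05 and a fold of at least 2 (0.546% of all 14828 genes were), and 0 were lower (0.883% of all genes were). Both were also the members whose groups did not overlap, which 2.85% of all genes did in that direction. Marco passed the filter of a mean of 0.1 FPKM in both host fits only through the NSG tumors. In ATRXKD tumors Marco was higher (0.266% of all 14669 genes were) and Timd4 was lower (1.12% were) in NSG mice. There, 1 member lay without overlap above the Balb/c tumors (3.05% of all genes did) and 3 below them, Timd4, Mpeg1 and Mrc1 (5.08% did). The median difference of the members, NSG minus Balb/c, was 0.27 in ATRXCT and -0.22 in ATRXKD tumors, against -0.0084 and 0.0163 over all genes. As single tumors were left out, it ranged from 0.14 to 0.39 in ATRXCT tumors, lowest without Balb/c tumor 45, and from -0.39 to -0.12 in ATRXKD tumors, lowest without Balb/c tumor 56 and nearest to 0 without Balb/c tumor 58, and with libraries weighted by quality it was 0.08 and -0.36. The groups of 1 comparison return in another, since the NSG ATRXCT tumors serve both as the controls of the knock-down and as the NSG side of the host comparison, so the values of different comparisons are set side by side without a count of shared directions.

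**Figure D3:**
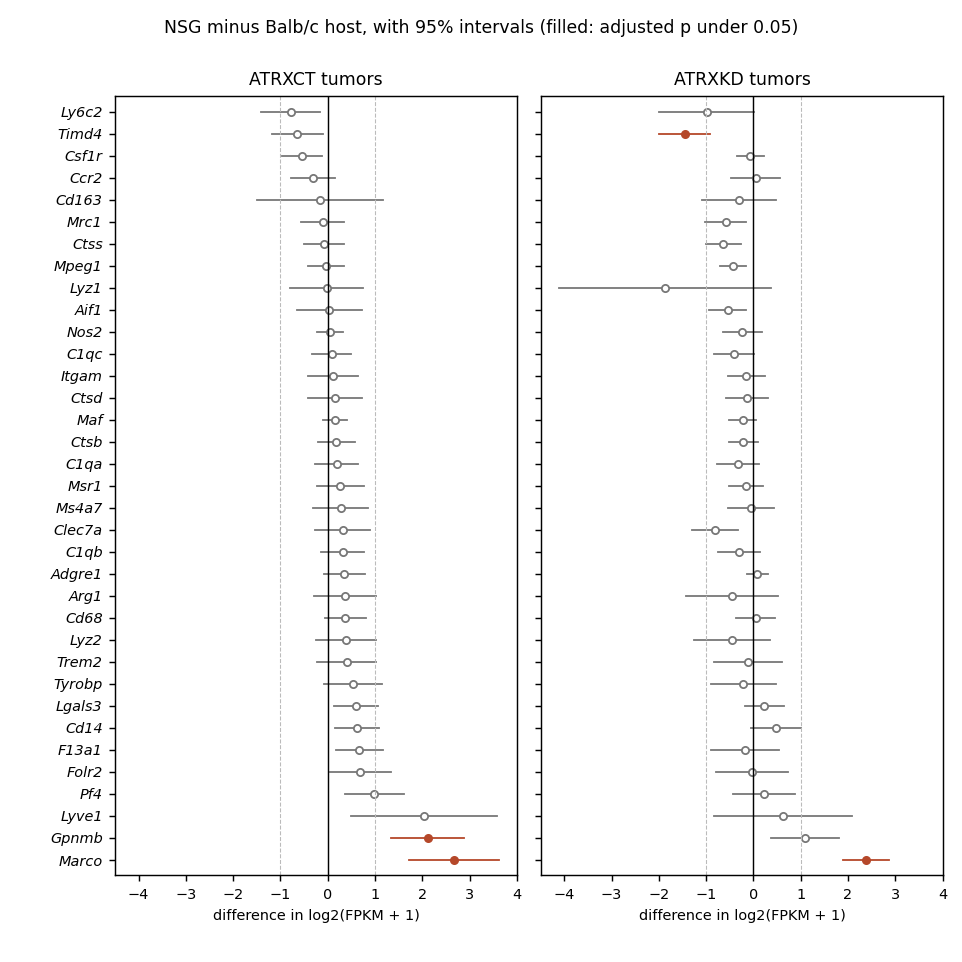
Log2 difference (NSG minus Balb/c, in log2(FPKM + 1)) of each member with its 95% interval, for ATRXCT and ATRXKD tumors, with red filled points for an adjusted p under 0.05. Marco lies highest in both panels, Gpnmb is filled only in ATRXCT tumors and Timd4 only in ATRXKD tumors.

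The C1q chains, encoded side by side on chromosome 4 between positions 136880145 and 136898844 (mm10), combine into 1 complement protein. C1qb (chr4:136880145-136886177) was at 411, 480.5, 466, 424 and 341 FPKM in the NSG ATRXCT tumors and at 363, 224, 214, 277 and 211 FPKM in the NSG ATRXKD tumors. Only the highest ATRXKD tumor, 26, reached into the ATRXCT range. The mean went from 425 ± 54.9 FPKM (SD, n = 5) to 258 ± 64.6 FPKM (SD, n = 5), which is 1.65-fold lower, with a log2 difference of -0.74 (SE 0.16, 95% interval -1.10 to -0.38, adjusted p = 0.0268). C1qc was lower by the same test, at -0.62 (SE 0.17, adjusted p = 0.0481), and C1qa had a log2 difference of -0.66 (SE 0.18, adjusted p = 0.0533). In Balb/c mice C1qb was at 406, 302, 454 and 235 FPKM in ATRXCT and at 233, 387, 326 and 319 FPKM in ATRXKD tumors. These overlapped, with a log2 difference of -0.12 (SE 0.25, adjusted p = 0.999). The chains kept close to a fixed ratio from tumor to tumor. C1qa over C1qb ran from 1.30 to 1.75 over the 18 tumors with a coefficient of variation of 7.85%, and C1qc over C1qb from 1.02 to 1.47 with 10.1%.

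Among the lineage receptors and general markers, Mpeg1 (chr19:12460779-12465285), which encodes the pore-forming protein perforin-2 of phagocytes, was lower in NSG ATRXKD tumors. It was at 114, 103, 147, 118 and 95.5 FPKM in ATRXCT and at 90.3, 68.3, 80.8, 75.9 and 78.3 FPKM in ATRXKD tumors. Every ATRXKD tumor lay below every ATRXCT tumor, and the log2 difference was -0.54 (SE 0.12, 95% interval -0.81 to -0.28, adjusted p = 0.0280). Its means were 120.2 ± 26.04 FPKM (SD, n = 4) and 107 ± 15.9 FPKM (SD, n = 4) in Balb/c ATRXCT and ATRXKD tumors, with a log2 difference of -0.16 (SE 0.18, adjusted p = 0.999). Csf1r, the receptor of the growth factor that macrophages depend on, did not go with the other members. It was at 213, 242, 339.5, 204 and 263 FPKM in NSG ATRXCT tumors and at 315, 351, 312, 299 and 327 FPKM in NSG ATRXKD tumors, a log2 difference of 0.37 (SE 0.14, adjusted p = 0.114). In Balb/c ATRXCT tumors it was at 330.1, 441, 279.5 and 424 FPKM, and NSG minus Balb/c was -0.54 (SE 0.19, adjusted p = 0.172) in ATRXCT tumors. Neither value passed the adjusted threshold. The other lineage genes had differences below 0 in NSG mice that did not pass. Cd68, a lysosomal glycoprotein of macrophages, had a log2 difference of -0.47 (adjusted p = 0.0628), Adgre1, which encodes the F4/80 antigen, -0.35 (adjusted p = 0.154), Itgam, the CD11b integrin chain, -0.49 (adjusted p = 0.189), and Aif1, the calcium-binding protein IBA1, -0.48 (adjusted p = 0.247).

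The lysozymes are enzymes that cut the bacterial cell wall. Lyz2 (chr10:117277541-117282272) was at 1903, 1753, 1534, 1817 and 1270 FPKM in NSG ATRXCT and at 1472, 834, 609.6, 923 and 581 FPKM in NSG ATRXKD tumors. Only ATRXKD tumor 26 was within the ATRXCT range, and the log2 difference was -0.97 (SE 0.25, 95% interval -1.51 to -0.44, adjusted p = 0.0400). With Balb/c hosts it was at 1664, 955, 1890 and 838 FPKM in ATRXCT and at 612, 1554, 1734 and 1026 FPKM in ATRXKD tumors, with a log2 difference of -0.14 (SE 0.42, adjusted p = 0.999). Lyz1, its neighbour on chromosome 10, was at 48.1, 22.9, 51.7, 59.2 and 26.9 FPKM in NSG ATRXCT and at 49.1, 30.6, 3.11, 12.8 and 3.62 FPKM in NSG ATRXKD tumors, and its difference of -1.59 (SE 0.65, adjusted p = 0.144) did not pass. Lyz1 was between 0.511% and 10.3% of Lyz2 across the 18 tumors, so the 2 lysozymes did not keep a fixed ratio. They share 75-base stretches, 6.22% of those of Lyz1 and 5.96% of those of Lyz2, so a small part of the reads could be assigned to either.

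Among the scavenger receptors, which bind modified lipoproteins and microbes, Marco (chr1:120474538-120505084) had the largest difference between hosts. Balb/c mice had 0, 0, 0.0853 and 0 FPKM in ATRXCT tumors and 0.0192, 0.0714, 0.0245 and 0.140 FPKM in ATRXKD tumors. NSG mice had 1.88, 15.3, 9.68, 3.07 and 4.58 FPKM in ATRXCT and 4.104, 2.65, 6.08, 7.33 and 3.68 FPKM in ATRXKD tumors. All 10 NSG tumors lay above all 8 Balb/c tumors, and 3 of the 4 Balb/c tumors of each group were at or under a floor of 3 fragments per library. With each Balb/c tumor set to its own floor or, where higher, to its value, the Balb/c means were 0.0791 FPKM with ATRXCT and 0.0986 FPKM with ATRXKD cells, and the mean of NSG tumors was at least 87.3-fold and at least 48.4-fold higher. The log2(FPKM + 1) differences were 2.67 (SE 0.43, 95% interval 1.72 to 3.62, adjusted p = 0.00591) and 2.38 (SE 0.22, 95% interval 1.90 to 2.85, adjusted p = 0.000107), and they understate the change of a gene near 0. As each tumor was left out, the adjusted p stayed between 0.0021 and 0.0238 with ATRXCT cells and at or below 0.000764 with ATRXKD cells. Marco averaged 0.0213 and 0.0639 FPKM in the Balb/c ATRXCT and ATRXKD groups, below the filter of 0.1 FPKM. It entered both host fits only through the NSG tumors, where it is high. These p-values therefore describe the values and lend the difference no separate support. Between NSG ATRXKD and ATRXCT tumors Marco did not pass, at -0.23 (SE 0.43, adjusted p = 0.773).

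Msr1 (chr8:39581700-39642678), the class A scavenger receptor CD204, behaved otherwise. It was at 143, 134, 129.7, 140.1 and 107 FPKM in NSG ATRXCT and at 106, 79.5, 66.6, 89.9 and 61.02 FPKM in NSG ATRXKD tumors. The groups did not overlap, and the log2 difference was -0.71 (SE 0.15, 95% interval -1.04 to -0.39, adjusted p = 0.0223). With Balb/c hosts it was at 114 ± 42.1 FPKM (SD, n = 4) in ATRXCT and 88.5 ± 9.84 FPKM (SD, n = 4) in ATRXKD tumors, with a log2 difference of -0.29 (SE 0.25, adjusted p = 0.999). Mrc1, the mannose receptor CD206, had a log2 difference of -0.47 (SE 0.21, adjusted p = 0.185) in NSG mice, and Cd163, the hemoglobin scavenger receptor, had a log2 difference of -0.22 (SE 0.44, adjusted p = 0.788). Cd163 ranged from 3.74 to 36.8 FPKM over the 18 tumors. Neither passed the test in any of the 4 comparisons.

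Of the genes of tissue-resident macrophages, 3 of 7 were lower in NSG ATRXKD than in NSG ATRXCT tumors at the adjusted threshold. By the same rule 3.05% of all genes were lower. Pf4 (chr5:90772435-90773383), the chemokine platelet factor 4, which resident macrophages also express, was at 454, 578, 373, 586 and 454 FPKM in ATRXCT and at 403, 216, 261, 354 and 200.2 FPKM in ATRXKD tumors, a log2 difference of -0.80 (SE 0.21, adjusted p = 0.0445). F13a1, the A chain of coagulation factor XIII, went from 270.4 ± 42.4 FPKM (SD, n = 5) to 155 ± 55.2 FPKM (SD, n = 5), with a log2 difference of -0.86 (SE 0.22, adjusted p = 0.0441). Maf, a transcription factor of macrophages, went from 96.5 ± 5.304 FPKM (SD, n = 5) to 72.4 ± 11.9 FPKM (SD, n = 5), with a log2 difference of -0.42 (SE 0.11, adjusted p = 0.0427). The folate receptor gene Folr2 had a log2 difference of -0.65 (adjusted p = 0.0560) and the membrane protein gene Ms4a7 -0.50 (adjusted p = 0.160). Balb/c ATRXCT tumors had Pf4 at 323, 183, 392 and 151 FPKM, and NSG minus Balb/c with ATRXCT cells was 0.98 (SE 0.28, adjusted p = 0.0977), which was called once Balb/c tumor 44 was left out.

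Lyve1, the hyaluronan receptor of perivascular macrophages and lymphatic vessels, varied more than most members. It was at 35.9, 7.01, 5.16 and 16.7 FPKM in Balb/c ATRXCT, 2.22, 31.9, 30.9 and 30.7 in Balb/c ATRXKD, 26.9, 162, 129.9, 38.6 and 20.05 in NSG ATRXCT and 40.1, 26.7, 16.02, 43.7 and 18.2 FPKM in NSG ATRXKD tumors. NSG ATRXCT tumors 2 and 3 were far above the rest, and NSG minus Balb/c in ATRXCT tumors was 2.03 (SE 0.69, adjusted p = 0.156). Lymphatic vessels also express this gene, and their part in its level was not tested.

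Timd4 (chr11:46810799-46844333), which encodes TIM-4, a receptor for phosphatidylserine on dying cells, was the member called lower in NSG than in Balb/c mice. It was at 2.15, 3.77, 4.14 and 1.24 FPKM in Balb/c ATRXCT, 6.45, 2.85, 4.68 and 7.78 in Balb/c ATRXKD, 1.75, 0.817, 1.27, 1.77 and 1.15 in NSG ATRXCT and 1.35, 0.663, 1.403, 1.93 and 1.07 FPKM in NSG ATRXKD tumors. With ATRXKD cells every Balb/c tumor lay above every NSG tumor, and the log2 difference, NSG minus Balb/c, was -1.45 (SE 0.24, 95% interval -1.99 to -0.92, adjusted p = 0.00730), from 5.44 ± 2.14 FPKM (SD, n = 4) to 1.28 ± 0.464 FPKM (SD, n = 5). Without any 1 tumor its adjusted p was between 0.0017 and 0.0249. With ATRXCT cells the groups overlapped, and the difference was -0.64 (SE 0.24, adjusted p = 0.190). ATRXKD minus ATRXCT in Balb/c mice, 0.76 (SE 0.33, adjusted p = 0.999), did not pass.

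**Figure D4:**
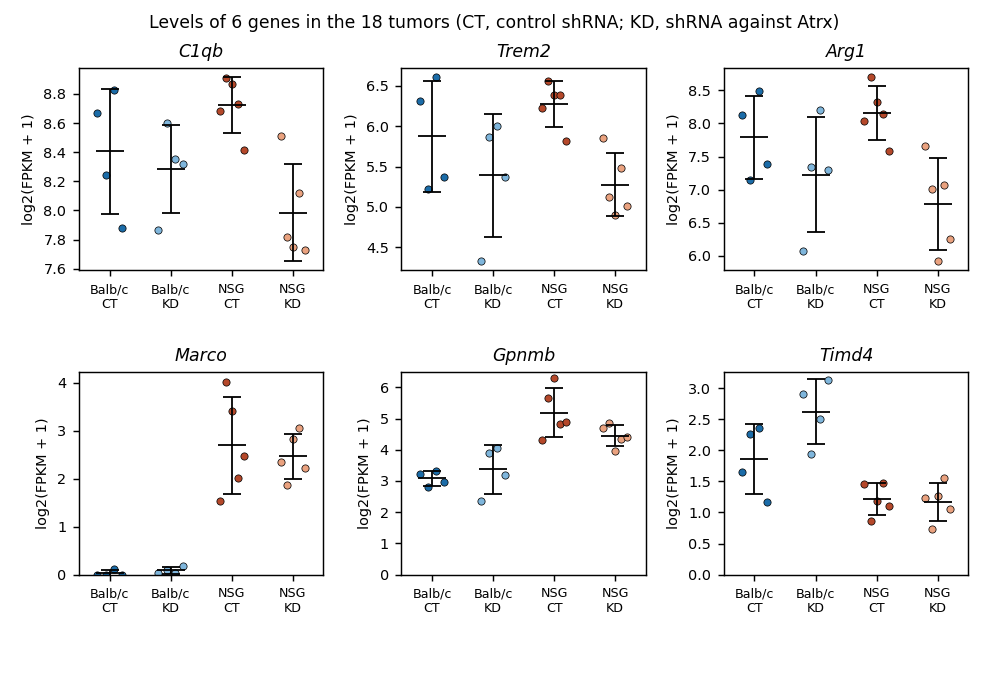
FPKM of C1qb, Trem2, Arg1, Marco, Gpnmb and Timd4 as log2(FPKM + 1) in each of the 18 tumors (points) by group, with the group mean and SD (bars). The means of Arg1, Trem2 and C1qb are lowest in NSG ATRXKD tumors, those of Marco and Gpnmb are higher in the NSG than in the Balb/c groups, and that of Timd4 is highest in Balb/c ATRXKD tumors.

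Trem2 (chr17:48346401-48352276), the lipid receptor, had the smallest adjusted p of the members between NSG ATRXKD and ATRXCT tumors. It was at 73.7, 93.3, 82.9, 82.3 and 55.2 FPKM in ATRXCT and at 56.7, 33.9, 28.9, 43.9 and 31.2 FPKM in ATRXKD tumors. Only ATRXKD tumor 26 overlapped with ATRXCT tumor 5, and the mean went from 77.5 ± 14.3 FPKM (SD, n = 5) to 38.9 ± 11.5 FPKM (SD, n = 5), which is 1.99-fold lower. The log2 difference was -0.998 (SE 0.19, 95% interval -1.42 to -0.58, adjusted p = 0.0169), and the adjusted p ran from 0.00786 to 0.0569 as each tumor was left out. Balb/c tumors had Trem2 at 78.1, 36.3, 96.7 and 40.4 FPKM in ATRXCT and at 19.1, 57.2, 63.3 and 40.5 FPKM in ATRXKD tumors, with a log2 difference of -0.48 (SE 0.42, 95% interval -1.43 to 0.47, adjusted p = 0.999). The spread in Balb/c tumors was wide enough to cover the difference measured in NSG mice.

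Its adaptor Tyrobp (chr7:30413788-30417582) was at 476, 438, 337, 549 and 379 FPKM in NSG ATRXCT and at 393, 195, 228, 290.4 and 185 FPKM in NSG ATRXKD tumors, with a log2 difference of -0.79 (SE 0.21, adjusted p = 0.0477). ATRXCT tumor 3 was the lowest of its group and was also the library of that group with the positive length slope. Cathepsin D (Ctsd), a lysosomal protease, was at 591, 692, 735, 681 and 546 FPKM in ATRXCT and at 519, 432, 467, 515 and 461 FPKM in ATRXKD tumors, without overlap, and had a log2 difference of -0.43 (SE 0.12, adjusted p = 0.0493). The proteases Ctss and Ctsb had a log2 difference of -0.58 (adjusted p = 0.0553) and -0.32 (adjusted p = 0.0904), and galectin-3 (Lgals3), a lectin recruited to damaged lysosomes, had a log2 difference of -0.11 (adjusted p = 0.644). Of the 7 genes of this group, 3 were lower at the adjusted threshold and 6 at an unadjusted p under 0.05.

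Gpnmb (chr6:49036518-49058182), a transmembrane glycoprotein of lysosome-rich macrophages, separated the hosts with ATRXCT cells. Balb/c mice had 8.27, 5.96, 9.07 and 6.88 FPKM in ATRXCT and 4.09, 13.8, 15.5 and 8.19 FPKM in ATRXKD tumors. NSG mice had 18.7, 49.6, 77.9, 27.1 and 28.5 FPKM in ATRXCT and 25.1, 28.2, 14.6, 19.5 and 20.04 FPKM in ATRXKD tumors. Every NSG ATRXCT tumor was above every Balb/c ATRXCT tumor, 5.35-fold by the means, with a log2 difference of 2.11 (SE 0.35, 95% interval 1.35 to 2.88, adjusted p = 0.00678). The adjusted p stayed between 0.00314 and 0.0295 as each tumor was left out. With ATRXKD cells the lowest NSG tumor, 28, lay below the highest Balb/c tumor, 59, and the difference was 1.09 (SE 0.33, adjusted p = 0.116). Gpnmb is also made by osteoblasts and osteoclasts, and the part of tumor cells in its level was not tested.

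Arg1 (chr10:24915207-24927470), arginase 1, which breaks down the arginine that T cells need, had a lower level in NSG ATRXKD tumors. It was at 262, 417, 319.8, 283 and 192 FPKM in ATRXCT and at 202, 128, 59.4, 133 and 74.9 FPKM in ATRXKD tumors. Only ATRXKD tumor 26 overlapped with the ATRXCT range, and the mean went from 295 ± 82.6 FPKM (SD, n = 5) to 119 ± 56.3 FPKM (SD, n = 5), which is 2.47-fold lower. The log2 difference was -1.38 (SE 0.31, 95% interval -2.06 to -0.70, adjusted p = 0.0280), and it lost the call, with an adjusted p up to 0.0861, without ATRXCT tumor 1 or 4 or ATRXKD tumor 28, 29 or 30. Balb/c tumors had Arg1 at 280.2, 141, 359.9 and 167 FPKM in ATRXCT and at 66.2, 161, 293 and 157 FPKM in ATRXKD tumors, with a log2 difference of -0.57 (SE 0.45, 95% interval -1.57 to 0.44, adjusted p = 0.999). Nos2, the inducible nitric oxide synthase that competes for the same amino acid, stayed between 1.44 and 4.09 FPKM in the 18 tumors and had a log2 difference of 0.0020 (SE 0.11, adjusted p = 0.994) in NSG mice.

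The pattern recognition receptors did not pass in any comparison. Clec7a, the beta-glucan receptor Dectin-1, was at 80.6, 39.6, 40.5, 86.96 and 69.2 FPKM in NSG ATRXCT and at 59.3, 25.96, 28.6, 36.8 and 27.1 FPKM in NSG ATRXKD tumors, with a log2 difference of -0.81 (SE 0.28, adjusted p = 0.0911). NSG ATRXCT tumors 2 and 3 lay well below the other 3, within the range of the ATRXKD tumors. In Balb/c mice Clec7a was at 47.8, 46.8, 64.2 and 37.2 FPKM in ATRXCT and at 51.7, 61.99, 68.3 and 59.5 FPKM in ATRXKD tumors, with a log2 difference of 0.31 (SE 0.17, adjusted p = 0.999). Cd14, the co-receptor for bacterial lipopolysaccharide, had a log2 difference of -0.45 (SE 0.13, adjusted p = 0.0597) in NSG mice.

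The monocyte genes did not pass either. Ccr2, the receptor that brings monocytes out of the blood, had a log2 difference of 0.25 (SE 0.19, adjusted p = 0.431) in NSG mice and -0.11 (SE 0.26, adjusted p = 0.999) in Balb/c mice. Ly6c2, the surface antigen of inflammatory monocytes, was at 9.300 ± 4.16 FPKM (SD, n = 4), 13.2 ± 7.57 FPKM (SD, n = 4), 4.79 ± 1.596 FPKM (SD, n = 5) and 6.495 ± 3.93 FPKM (SD, n = 5) in Balb/c ATRXCT, Balb/c ATRXKD, NSG ATRXCT and NSG ATRXKD tumors. NSG minus Balb/c was -0.78 (SE 0.28, adjusted p = 0.173) for ATRXCT and -0.98 (SE 0.45, adjusted p = 0.313) for ATRXKD tumors. Of its 75-base stretches 7.41% are shared with Ly6c1, so its reads are in part ambiguous.

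Other genes of the macrophage program were taken from lists that do not hold the 35. Of 14 macrophage growth factors, receptors and transcription factors, such as Csf1 and the PU.1 gene Spi1, 0 were called at a fold of 2 in any comparison. At the adjusted threshold 1 was lower in NSG ATRXKD than in NSG ATRXCT tumors, and 1 was lower in NSG than in Balb/c ATRXKD tumors. Their median differences were -0.07 for the knock-down in Balb/c mice, -0.38 for the knock-down in NSG mice, and -0.15 and -0.38 for NSG against Balb/c hosts with ATRXCT and ATRXKD cells. Of 11 monocyte chemoattractants and receptors, 1 was lower and 1 higher at the adjusted threshold in NSG ATRXKD tumors. The medians of this list were -0.07, -0.44, 0.08 and -0.17 in the same order.

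Among 10 partners of Trem2 and Tyrobp, 2 were called lower in NSG ATRXKD than in NSG ATRXCT tumors. Apoe, the apolipoprotein that TREM2 binds, was at 302 ± 135 against 817 ± 248 FPKM (SD, n = 5 each), with a log2 difference of -1.48 (SE 0.28, adjusted p = 0.0162). Abca1, a transporter that loads cholesterol onto apolipoproteins, was at 20.2 ± 5.93 against 48.8 ± 21.95 FPKM, with -1.19 (SE 0.25, adjusted p = 0.0231). In Balb/c mice 0 of the 10 passed. Apoe was also lower in NSG than in Balb/c ATRXKD tumors, which had 814 ± 207 FPKM (log2 difference -1.48, adjusted p = 0.0259), and so was Hcst, the signalling adaptor DAP10, at 4.84 ± 1.64 against 13.05 ± 4.66 FPKM (-1.24, adjusted p = 0.0381).

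Of 25 other macrophage and monocyte markers, 24 of which were tested, 2 were lower at the adjusted threshold in NSG ATRXKD than in NSG ATRXCT tumors and 0 were higher. Cd209f, a C-type lectin of the DC-SIGN family, was higher in NSG mice, at 8.204 ± 2.78 against 1.68 ± 0.629 FPKM with ATRXCT cells (log2 difference 1.75, adjusted p = 0.00155) and at 13.4 ± 5.95 against 2.12 ± 1.47 FPKM with ATRXKD cells (2.23, adjusted p = 0.0182). With ATRXKD cells Chil3, a chitinase-like secreted protein, was higher in NSG mice as well, at 2.37 ± 1.55 against 0.309 ± 0.216 FPKM (1.28, adjusted p = 0.0247). The iron exporter gene Slc40a1 was lower there, at 19.2 ± 7.49 against 87.7 ± 15.1 FPKM (-2.21, adjusted p = 0.000969), as were the lectin genes Clec10a, at 29.8 ± 11.5 against 69.5 ± 13.7 FPKM (-1.25, adjusted p = 0.0246), and Siglec1, at 22.9 ± 1.66 against 53.5 ± 12.05 FPKM (-1.16, adjusted p = 0.00115). Medians of this list were 0.07, -0.46, 0.05 and -0.45 in the same order as above.

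Markers of other cells moved with some of these comparisons, and their part in the results was not tested. Summed over each list, neutrophil markers ran from 92.9 to 359 FPKM in Balb/c ATRXCT, 207 to 377 in Balb/c ATRXKD, 87.8 to 203 in NSG ATRXCT and 49.5 to 145 FPKM in NSG ATRXKD tumors, and 2 of 10 (S100a8 and S100a9) were lower in NSG than in Balb/c ATRXKD tumors. Endothelial markers ran from 41.3 to 74.1, 57.0 to 153, 17.8 to 51.7 and 42.8 to 57.8 FPKM in the same order, and 3 of 8 were higher in NSG ATRXKD than in NSG ATRXCT tumors at the adjusted threshold, with a median of 0.75, while 1 of 8 was called lower in NSG than in Balb/c mice with either kind of cells. Osteoclasts, which share the macrophage lineage and several of the 35 genes, had sums of 73.2 to 108, 74.2 to 110, 71.7 to 96.3 and 77.4 to 90.5 FPKM, with Calcr at 0 in all but the NSG ATRXCT group, and of the 6 markers tested 1 was lower and 1 higher in NSG ATRXKD than ATRXCT tumors, and 2 were higher in NSG than in Balb/c ATRXKD tumors, at the adjusted threshold. Dendritic cell markers had 10.4 to 19.6, 14.3 to 19.9, 11.0 to 18.7 and 8.86 to 15.1 FPKM, and 1 of 8 was lower at that threshold in NSG than in Balb/c ATRXKD tumors. T cell markers were at 28.4 to 49.3 and 26.6 to 46.8 FPKM in the Balb/c groups and at 1.13 to 6.31 and 2.41 to 4.38 FPKM in the NSG groups, with Cd3g listed at 0 in all NSG ATRXCT and Cd3e in all NSG ATRXKD tumors, and NK cell markers at 72.1 to 126 and 51.1 to 342 FPKM against 0.134 to 0.723 and 0.128 to 0.785 FPKM. These are the cells NSG mice lack. Of 8 T cell markers 6 were lower in NSG mice with ATRXCT and 7 with ATRXKD cells, and of 8 NK cell markers 8 and 7.

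B cell markers stayed within 1.63 to 5.88 FPKM in all 18 tumors, and 1 of the 4 tested was lower at the adjusted threshold in NSG than in Balb/c ATRXCT tumors. Mast cell markers were at 181 to 432, 45.3 to 113, 23.1 to 127 and 58.6 to 111 FPKM in the order of groups used above, and 3 of 8 with ATRXCT and 1 of 8 with ATRXKD cells were called lower in NSG mice, while 0 of 8 passed between ATRXKD and ATRXCT tumors in Balb/c mice, where the median was -1.63. Osteoblast markers were at 108 to 296, 133 to 510, 62.0 to 137 and 103 to 195 FPKM, and 0 passed in any comparison. The same count of 0 held for keratinocyte markers, at 1.44 to 83.1, 1.41 to 13.8, 1.23 to 5.75 and 1.43 to 16.1 FPKM, and for skeletal muscle markers, at 6.76 to 41.4, 1.39 to 28.3, 4.27 to 319 and 1.33 to 439 FPKM, which vary with the tissue at the edge of a tumor sample.

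Within groups, most members went up and down together from tumor to tumor. After subtraction of each group's mean, Pearson's r between a gene and the mean of the other members over the 18 tumors was 0.94 for Cd68 and Trem2 and 0.93 for F13a1 and C1qa. It was lowest for Nos2 at -0.49, Csf1r at -0.37 and Timd4 at -0.02. For some members r differed between the hosts, as for Lgals3 (0.93 in Balb/c and -0.03 in NSG tumors) and Maf (-0.18 and 0.86). These are descriptions over tumors that share library effects. The same centred levels also followed the length slope of the library, with r of -0.92 for Lgals3, -0.89 for Tyrobp (569 bases), -0.87 for Folr2, -0.84 for Pf4 (588 bases) and 0.83 for Csf1r (3875 bases). The sign of r did not go with length alone. It was -0.56 for F13a1 (3877 bases) and -0.68 for Ctsb (4743 bases). With the trend on transcript length removed in each library, 13 members were lower at the adjusted threshold in NSG ATRXKD tumors, of which 11 were among the 12 above. In that fit 5.52% of all genes were lower, beside 3.05% in the main fit.

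**Figure D5:**
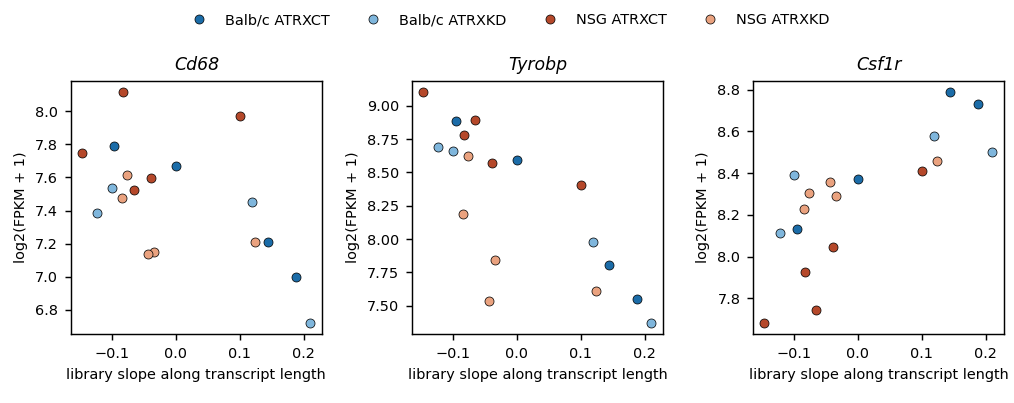
Levels of Cd68, Tyrobp and Csf1r as log2(FPKM + 1) in the 18 tumors against the length slope of the library (change in log2(FPKM + 1) per doubling of transcript length), with a symbol for each group. Tyrobp falls and Csf1r rises along the axis, with r of -0.89 and 0.83 after the group means are subtracted.

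Among the 12146 other genes that averaged 1 FPKM or more, those with levels most like the mean of the 35 members over the 18 tumors, again after subtraction of group means, were P2rx4 (r = 0.953), Sumf1 (0.952), Cfp (0.945), Rnase4 (0.940), Aldh3b1 (0.938), Dnase1l1 (0.938), Osbpl9 (0.937), Stx3 (0.936), Hfe (0.935) and Lamp1 (0.934). P2rx4 encodes an ATP-gated channel, Cfp the complement regulator properdin, Hfe the hemochromatosis protein of iron control and Lamp1 a protein of the lysosomal membrane. Of these 10, Rnase4 (log2 difference -1.07, adjusted p = 0.0358), Stx3 (-0.71, adjusted p = 0.0214), Hfe (-0.71, adjusted p = 0.0477) and Dnase1l1 (-0.57, adjusted p = 0.0426) were lower in NSG ATRXKD than in NSG ATRXCT tumors in limma. Likeness of level over tumors says nothing of a shared function or control.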

How the data were processed

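RNA of 18 K7M2 tumors was sequenced by the authors as paired reads of 75 bases after ribosomal RNA depletion, aligned to mm10 with STAR 2.6.0c and quantified against RefSeq genes with Cufflinks 2.2.1. The deposited values are log2(FPKM + 1) per gene and tumor, which were turned back to FPKM where levels are given. Depth was estimated from the spacing of low values, but only 34.4% to 42.1% of values lay within 0.1 of a whole fragment, so counts could not be recovered and no count test was run (the study used DESeq in Balb/c tumors). limma 3.58.1 (R 4.3.3) was fitted with a mean trend to log2(FPKM + 1) of the groups compared, over genes that averaged 0.1 FPKM or more, with Benjamini-Hochberg adjustment over all genes. A call needs an adjusted p under 0.05 and a fold of at least 2, and members past the adjusted p at any fold were also counted, a count added after the values were seen. In simulated data with 200 genes changed by 2 on the log2 scale, 93.5%, 99.0%, 98.5% and 96.5% were recovered in the order Balb/c knock-down, NSG knock-down, ATRXCT hosts and ATRXKD hosts. Unchanged genes called numbered 6, 0, 3 and 2 in that order. The simulated noise was independent between genes, and the changed genes had a mean log2(FPKM + 1) above 2. Smaller differences, such as most of those of the members, were not simulated, so the recovery says nothing of them. All members are named, and from other lists at most the 5 called genes with the largest change per comparison, Hcst and Siglec1 being added after their values were seen. Some listed genes are not reported here. Members and lists were chosen with earlier results of these data known. P-values measure the spread between tumors of separate mice. Correlations and motif searches used Python 3.11.15. Alternatives are listed in the closing section.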

Additional observations from a re-analysis of the deposited data

Results flagged for a closer look

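Among 138 member and group combinations of 4 or 5 tumors, 4 held a tumor whose gap to the nearest other, divided by the range of the group, exceeded Dixon's 95% value, where chance alone gives about 1 in 20, or 6.9. On the log2(FPKM + 1) scale C1qa was 8.46 in Balb/c ATRXKD tumor 56 (352 FPKM, with the other 3 tumors at 512 to 530 FPKM). Lyve1 in the same tumor was 1.69 (2.22 FPKM, others 30.7 to 31.9 FPKM). Adgre1 was 5.54 in Balb/c ATRXCT tumor 45 (45.6 FPKM, others 67.0 to 70.1 FPKM), and Lgals3 was 9.03 in NSG ATRXCT tumor 3 (521 FPKM, others 731 to 825 FPKM). Tumors 56, 45 and 3 all have a positive length slope (0.211, 0.188 and 0.1002), and its part in these values was not tested.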

How the results depend on the processing

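No paired analysis was possible because the groups share no mouse numbers. For ATRXKD against ATRXCT tumors in NSG mice, 1 member was called lower in the report, beside 43 of all 14654 genes. The number was 2 with a pseudocount of 0.1 (163 genes), 2 with median-ratio scaling (47 genes) and 12 with no fold threshold (447 genes). With libraries weighted by quality it was 5 (122 genes), and as single tumors were left out it was 0 to 6 (12 to 86 genes). The number lower at any fold was 12 in the report (3.05% of all genes). Without a filter on low values, where more genes are tested, it was 5 (1.63%). It was 7 in a fit of all 4 groups, 6 of them among the 12 (2.52%), and 23 with library weights (16.8% of all genes). As single tumors were left out it was 0 to 19 (0.369% to 5.48%). The number higher was 1 with library weights (2950 of 14654 genes) and 0 to 1 with a tumor left out (90 to 1279 genes). For NSG against Balb/c hosts in ATRXCT tumors, 1 member, Ly6c2, was called lower once the trend with transcript length was removed. In that fit 141 of all 14828 genes were called lower. With a tumor left out, 2 to 3 members were called higher (50 to 120 genes). For the hosts in ATRXKD tumors, 2 were called lower with library weights (195 of 14669 genes). With a tumor left out it was 1 to 2 (140 to 181 genes). The interaction called 4 members with library weights (Clec7a, Gpnmb, Lyz2 and Tyrobp), beside 124 genes higher and 71 lower of 14803. The cause of these shifts was not tested. The mean level of the members in NSG ATRXCT tumors, 6.66 on the log2 scale, was 6.89 as a median over members. Only tests of single genes with an unadjusted p under 0.05 in the main limma fit were followed. Of these, read at an adjusted p under 0.05 together with a fold of at least 2, 384 kept their direction and side of the threshold under an alternative and 19 became significant, and with a tumor left out 514 kept them, 10 became significant and 5 lost significance. None changed direction, which that choice of tests makes likely in advance. For a gene below a fold of 2, loss of the adjusted p alone is counted here as kept. Groups of 4 or 5 tumors, an unknown count of fragments per gene and bulk tissue limit what these values can show.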
